A study of Mus musculus with 5 samples.

Results

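Complement and coagulation are protease cascades of the blood that share inhibitors and receptors with the tissue they act on. Here 42 genes of both systems, of the 35478 genes listed, were followed in mouse kidneys after ischemic injury. They are 12 complement components, 2 complement receptors, 5 complement inhibitors, 9 coagulation factors, 1 thrombin receptor, 8 anticoagulants and 5 genes of fibrinolysis, taken by name from a list of what they do. The rule uses no measured value, but the list was drawn up with earlier results of these data known.

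In complement, C3 is cleaved by enzymes built from C2, C4b and Cfb, and membrane proteins such as Cd55 take those enzymes apart on the body's own cells. In coagulation, tissue factor (F3) starts a cascade that makes thrombin, thrombin turns fibrinogen into fibrin, and the thrombomodulin and protein C pathway limits it. Fibrin is removed by plasmin, which Plau and Plat release from plasminogen (Plg). The liver makes most of the soluble proteins of the plasma, but injured kidney epithelium also transcribes C3 and fibrinogen.

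The kidneys came from 2 Prdm16fl/fl mice (mice 1 and 3, hereafter the control mice) and 3 Ksp-Cre/Prdm16fl/fl mice (mice 1, 2 and 3, hereafter the Ksp-Cre mice). All were young adult males of a C57BL/6J;129 strain with both alleles of Prdm16 floxed. All had unilateral ischemia-reperfusion injury (UIRI). The left pedicle was clamped for 35 minutes at 38.5°C, the right kidney was taken out on day 10, and the mice were killed 24 hours later, on day 11. No library of an uninjured kidney is part of the comparison. Ksp-Cre drives Cre recombinase from the promoter of kidney-specific cadherin in tubular epithelium, so other cells of the kidney keep Prdm16. One RNA-seq library was made per mouse, from kidney cortex according to the study's methods, and the question is whether the genotype changed expression after injury.

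Counted reads summed to between 14939040 and 16425161 per library. Ksp-Cre mouse 3 stood apart. Across the genes tested, its log2 levels correlated with the other libraries at Pearson's r of 0.943 to 0.960, against 0.970 to 0.991 for the other pairs. Results that rest on it are therefore given with and without it. Prdm16 itself was at 25.3 and 20 counted reads per 1000000 (CPM, scaled with edgeR's TMM factors) in the control mice and at 17.1, 17 and 18 CPM in the Ksp-Cre mice (log2 fold change -0.38, standard error 0.15, edgeR adjusted p = 0.259). The count covers the whole gene in all cells of the tissue.

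The 3 fibrinogen genes, with F13a1, had the largest positive log2 fold changes of the 39 members tested. Fga, Fgb and Fgg lie side by side on chromosome 3. Their upstream sequences are shown to let the motifs be seen beside those values. Each line gives the 250 bases before the RefSeq start site, 5′ to 3′ on the gene's own strand, in GRCm38.p6. Capitals mark matches to 1 of 6 motifs. The windows are chr3:83025903-83026152 on the plus strand for Fga, chr3:83049864-83050113 on the minus strand for Fgb and chr3:83007474-83007723 on the plus strand for Fgg.
Fga: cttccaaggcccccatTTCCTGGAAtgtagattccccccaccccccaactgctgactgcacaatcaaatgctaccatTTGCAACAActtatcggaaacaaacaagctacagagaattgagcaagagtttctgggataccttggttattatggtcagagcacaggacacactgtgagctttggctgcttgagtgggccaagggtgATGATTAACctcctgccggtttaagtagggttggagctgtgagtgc
Fgb: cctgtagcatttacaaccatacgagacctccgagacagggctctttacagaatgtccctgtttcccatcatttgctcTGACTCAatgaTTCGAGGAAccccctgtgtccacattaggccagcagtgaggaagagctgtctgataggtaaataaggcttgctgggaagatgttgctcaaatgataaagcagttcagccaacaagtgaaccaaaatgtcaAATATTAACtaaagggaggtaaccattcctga
Fgg: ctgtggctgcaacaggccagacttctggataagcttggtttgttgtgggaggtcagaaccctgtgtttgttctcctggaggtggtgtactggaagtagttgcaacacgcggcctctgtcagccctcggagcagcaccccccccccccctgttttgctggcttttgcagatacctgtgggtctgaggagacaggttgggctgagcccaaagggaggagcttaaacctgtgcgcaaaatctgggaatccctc

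The motifs were searched on both strands of 32851 such windows, of which 29 belong to members. TTCNNNGAA, bound by STAT factors, occurred in 7.02% of all windows, and in Fga, Fgb, C7 and Pros1 among the members. GTTAATNNT, part of the site of HNF1, occurred in 2.27% of all windows, and in Fga and Fgb. TTGCNNCAA, bound by C/EBP factors, occurred in 1.74%, and in Fga, C6 and C7. In Fga the STAT, C/EBP and HNF1 matches began 234, 173 and 46 bases before the start site, and did not overlap. In Fgb an AP-1 match began 173 bases, a STAT match 162 bases and an HNF1 match 32 bases before it. The AP-1 motif, TGANTCA, occurred in 6.75% of all windows, and in Fgb, F3, F2r, Plaur, Procr and C3ar1. The IRF motif occurred in 2.98%, and in Cd59a. The NF-kB motif occurred in 0.356% and in no member. Fgg held none of the 6. A match is a stretch of letters, and binding was not measured.

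To compare genes with each other, levels in TPM, read counts divided by gene length and brought to the same total of 1000000 in each library, were averaged over the 5 mice. C3, the central component of complement, had the highest level at 754 TPM, with single mice between 390 and 1209. Plau, the urokinase-type plasminogen activator, followed at 518 TPM. Cfb, complement factor B, was at 391 TPM, Fgg at 278 TPM and Fga at 206 TPM. Plat, Serping1, Serpinf2 and C2 also reached 100 TPM, 28 members lay between 1 and 100 TPM, and 5 lay below 1 TPM. The last were Vwf, Serpind1, Plg, A2m and Fcna. The order of the top 5 is that of means only, since the ranges of C3, Plau and Cfb overlapped and those of Fgg and Fga ran from 73.8 to 843 TPM and from 50.7 to 661 TPM.

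**Figure D1:**
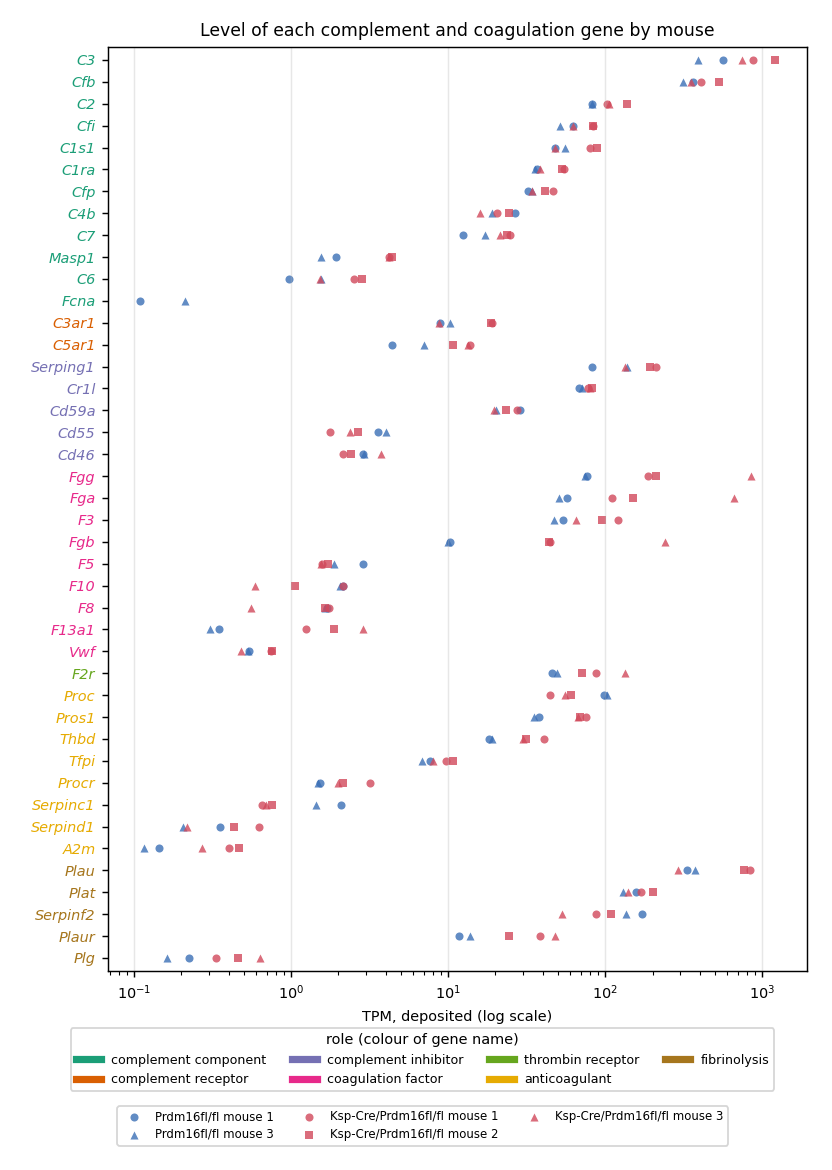
Level of each of the 42 members in each mouse, as deposited TPM on a log axis, grouped by role. C3 has the highest mean, and Fga, Fgb and Fgg in Ksp-Cre mouse 3 lie far to the right of the other mice. Fcna was at 0 in the 3 Ksp-Cre mice, which a log axis cannot show.

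Of the 42 members, 39 passed edgeR's filter on low counts. With p-values adjusted over the 16394 genes tested and a threshold of 0.05, 1 member was higher in the Ksp-Cre mice, where 0.104% of all genes were, and 0 were lower, where 0.872% were. That member was Pros1, just inside the threshold. The unadjusted p was under 0.05 for 13 higher members, or 33.3% against 7.64% of all genes, and for 5 lower members, or 12.8% against 11.2%. DESeq2 called 7 higher members (background 1.98%) and 3 lower ones (background 5.8%). Without Ksp-Cre mouse 3, edgeR called 14 higher (background 7.82%) and 6 lower (background 11%). Of these, DESeq2 with all mice did not call C3ar1, F3, Fga, Fgg, F2r, A2m, Plau, Cd46, F5 or Serpinc1.

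By separation alone, all 3 Ksp-Cre mice lay above both control mice for 16 of the 39 members tested (41%, against 20.3% of all genes) and below both for 7 (17.9% against 21.3%). The other 16 overlapped (41%, against 58.4%). Groups of 2 and 3 mice allow 10 splits, so an exact permutation test of a single gene cannot give a p under 0.1. The median log2 fold change of the 39 members was 0.24, beside 0.04 for all genes tested. Against the mean of the control mice, the members' median was 0.33 and 0.36 in Ksp-Cre mice 1 and 2 and 0.05 in Ksp-Cre mouse 3, where the control mice were at -0.05 and 0.05. The higher median was thus seen in Ksp-Cre mice 1 and 2, while the median of mouse 3 was no higher than that of a control mouse.

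**Figure D2:**
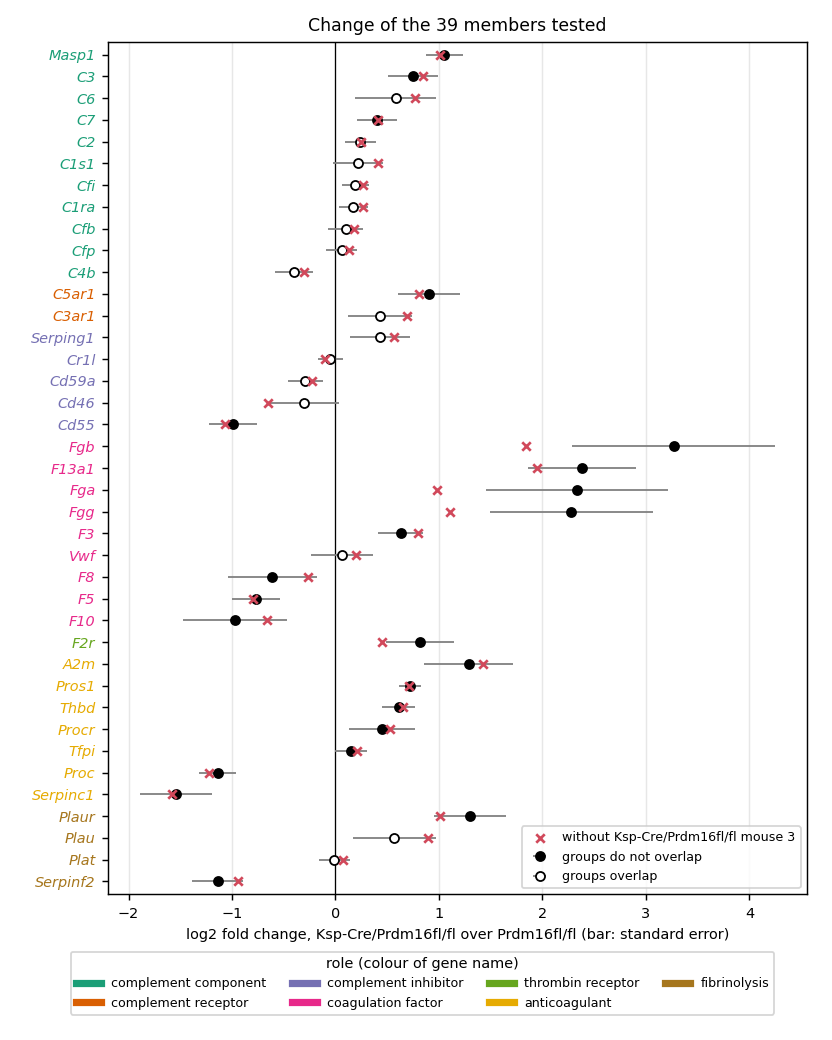
Log2 fold change (Ksp-Cre/Prdm16fl/fl over Prdm16fl/fl) of the 39 members tested, with standard errors from edgeR, and crosses for the fit without Ksp-Cre mouse 3. Fgb, F13a1, Fga and Fgg have the largest positive values and Serpinc1, Serpinf2 and Proc the largest negative ones, and only for the fibrinogen genes does the cross lie more than 1 log2 unit from the point.

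Fibrinogen is built from 3 chains, Aα (Fga), Bβ (Fgb) and γ (Fgg). Fga was at 84.3 and 82.1 CPM in the control mice and at 139, 188 and 931 CPM in Ksp-Cre mice 1, 2 and 3. Fgb was at 7.55 and 8.18 CPM and at 28.2, 28.1 and 172 CPM. Fgg was at 70.4 and 74.8 CPM and at 147, 166 and 745 CPM. For each chain the control mice were close together, all 3 Ksp-Cre mice were higher, and mouse 3 was several times higher than the other two. Over the control mean, Fga was 1.67-, 2.26- and 11.2-fold, Fgb 3.59-, 3.57- and 21.9-fold, and Fgg 2.02-, 2.28- and 10.3-fold in Ksp-Cre mice 1, 2 and 3. With all mice, the log2 fold change was 2.33 for Fga (standard error 0.88, edgeR adjusted p = 0.233), 3.27 for Fgb (0.98, adjusted p = 0.159) and 2.28 for Fgg (0.79, adjusted p = 0.203). No chain passed the threshold in that fit, and DESeq2 called Fgb (adjusted p = 0.0363). Without mouse 3 the differences were smaller and passed the threshold. They were 0.98 for Fga (edgeR adjusted p = 0.00300), 1.84 for Fgb (2.6e-04) and 1.11 for Fgg (6.5e-04).

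The chains did not move in equal proportion. Of the summed TPM of the 3 chains, Fgb made up 7.05% and 7.43% in the control mice and 13%, 10.9% and 13.8% in the Ksp-Cre mice, where it was higher in every mouse. Fgg made up 48.3% to 54.9% and Fga 32.5% to 39.8% over the 5 mice.

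Of 9 hepatocyte markers, 6 lay below both control mice in every Ksp-Cre mouse and 0 above. Their sum was 76.0 and 111 CPM in the control mice and 28.9, 22.9 and 36.0 CPM in the Ksp-Cre mice. Most of that sum was Ttr, at 61.8 and 86.2 CPM and at 22.1, 15.4 and 29.1 CPM. Albumin (Alb) was at 0.532 to 2.15 CPM, and Ahsg, Tat and Cps1 had 3 counts or fewer in every library. Most markers of injured tubule were higher in the same mice. Of 8 of them, 7 lay above both control mice in every Ksp-Cre mouse, but they did not share the order of the Ksp-Cre mice. Those named here were chosen after their values were seen. Lcn2 was at 272, 204 and 658 CPM and Sox9 at 38.3, 47.8 and 132 CPM in Ksp-Cre mice 1, 2 and 3, highest in mouse 3 like fibrinogen. Havcr1 was at 683, 696 and 472 CPM and Vcam1 at 544, 804 and 366 CPM, lowest in mouse 3, where Vcam1 was below both control mice (457 and 415 CPM). Their part in the fibrinogen levels was not tested. In bulk kidney RNA, fewer cells of a type and less RNA per cell cannot be told apart, and the same holds for more cells and more RNA.

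F13a1, the A subunit of the factor XIII that cross-links fibrin, was at 0.742 and 0.718 CPM in the control mice and at 2.27, 3.43 and 5.86 CPM in the Ksp-Cre mice. These are 10 to 88 reads per library. All Ksp-Cre mice were higher, mouse 3 again the most (log2 fold change 2.38, standard error 0.52, edgeR adjusted p = 0.0865). DESeq2 called it (adjusted p = 0.00243), as did edgeR without mouse 3 (1.95, adjusted p = 0.00840). F3, the tissue factor, was at 44.0 and 42.8 CPM and at 84.1, 66.8 and 50.8 CPM. Here mouse 3 was the lowest of the Ksp-Cre mice, although still above the control mice (0.63, standard error 0.22, adjusted p = 0.202, and 0.80 with adjusted p = 0.00454 without mouse 3). DESeq2 did not call F3 (adjusted p = 0.128). F2r, the thrombin receptor PAR-1, was at 66.6 and 78.6 CPM and at 109, 88.6 and 187 CPM, again with no overlap. The difference (0.82 on the log2 scale, standard error 0.33, adjusted p = 0.255) was 0.45 without mouse 3 (adjusted p = 0.0474). DESeq2 did not call F2r (adjusted p = 0.135).

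Of the other coagulation factors, 3 were lower in CPM in every Ksp-Cre mouse and none of them passed the adjusted threshold in the fit of all mice. F5, the cofactor of factor Xa, was at 9.24 and 6.67 CPM in the control mice and at 4.37, 4.78 and 4.80 CPM in the Ksp-Cre mice (log2 fold change -0.77, standard error 0.23, edgeR adjusted p = 0.162, and -0.80 with adjusted p = 0.0407 without Ksp-Cre mouse 3). DESeq2 did not call F5 (adjusted p = 0.104). F8, the cofactor of factor IXa, was at 9.10 and 9.83 CPM and at 8.06, 7.62 and 2.87 CPM. Its fitted difference (log2 fold change -0.61, standard error 0.43, adjusted p = 0.492) rested on mouse 3 and was -0.27 without it. F10, the zymogen of factor Xa, was at 2.49 and 2.65 CPM and at 2.16, 1.06 and 0.666 CPM (-0.97, standard error 0.50, adjusted p = 0.353, and -0.66 without mouse 3). It had 10 to 38 reads per library. In TPM the groups overlapped for F10 (2.13 and 2.05 in the control mice, 2.15 in Ksp-Cre mouse 1). They also overlapped for F8 (1.69 and 1.65 in the control mice, 1.75 in Ksp-Cre mouse 1). Vwf, the von Willebrand factor of endothelium and platelets, overlapped between the groups, at 2.09 and 2.30 CPM and at 2.50, 2.54 and 1.80 CPM (0.06, standard error 0.30, adjusted p = 0.933). Its sign turned under other settings.

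**Figure D3:**
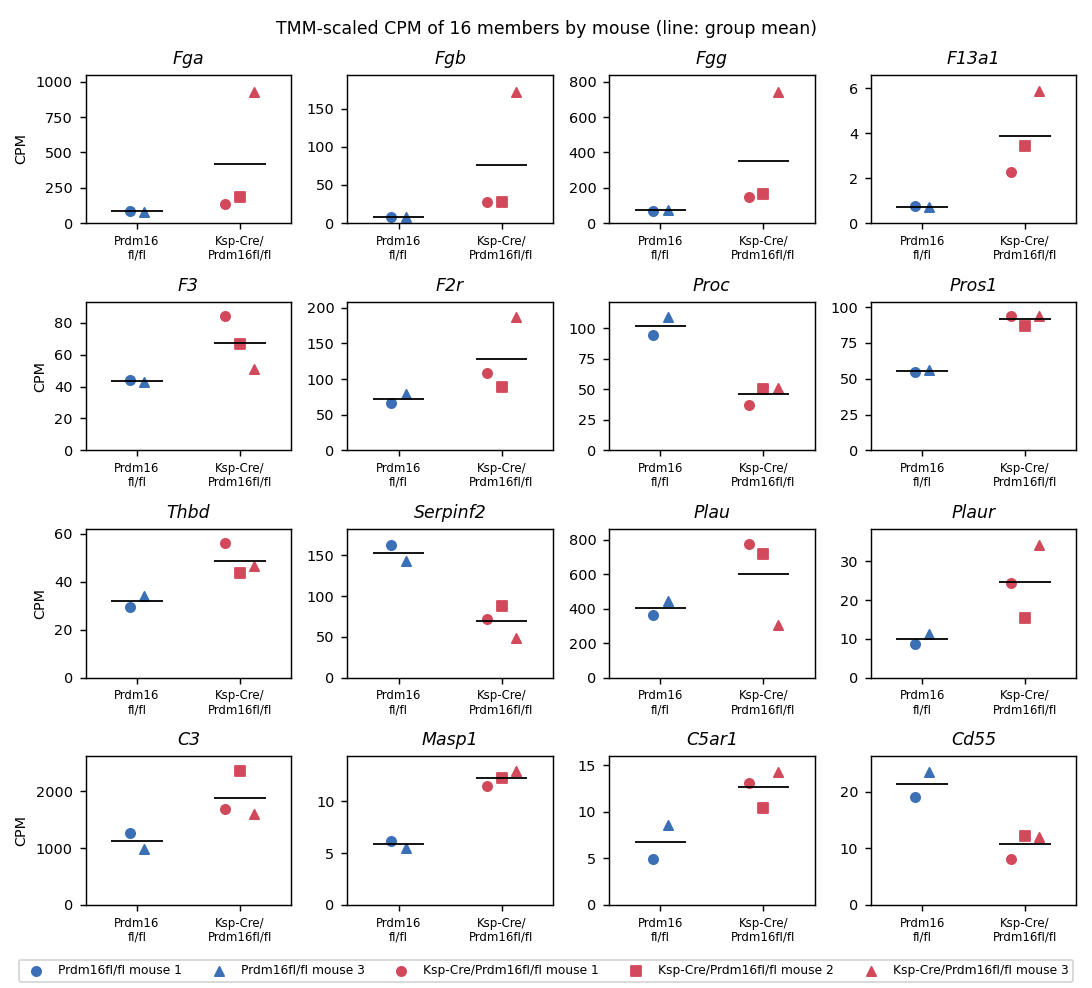
TMM-scaled CPM of 16 members in each mouse, with a line at each group mean and axes that start at 0. The groups overlap only in Plau, where Ksp-Cre mouse 3 lies below both control mice. In the fibrinogen genes Ksp-Cre mouse 3 is far above the others, and in F13a1 it is the highest.

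Within the protein C pathway of anticoagulation, members differed in opposite directions. Protein S (Pros1), the cofactor of activated protein C, rose from 54.8 and 56.1 CPM in the control mice to 94.1, 86.5 and 93.7 CPM in the Ksp-Cre mice. Both groups were tight and did not overlap (log2 fold change 0.72, standard error 0.11, edgeR adjusted p = 0.0498, DESeq2 adjusted p = 1.0e-04). Over the alternatives its log2 fold change stayed between 0.69 and 0.83, and the call was lost in 12 of them. Among these were the fits without Ksp-Cre mouse 1 or 2 (edgeR adjusted p = 0.151 and 0.149), which called 0 of all genes. Without control mouse 1 or 3, which leaves 1 control mouse, the log2 fold change was 0.70 and 0.74. Protein C (Proc) was at 94.1 and 109 CPM in the control mice and at 36.8, 50.3 and 51.3 CPM in the Ksp-Cre mice. It missed the threshold by little (log2 fold change -1.14, standard error 0.18, edgeR adjusted p = 0.0505) and was called by DESeq2 (2.1e-05) and by edgeR without Ksp-Cre mouse 3 (-1.22, adjusted p = 0.00163). Thrombomodulin (Thbd), which turns thrombin into the activator of protein C, was at 29.6 and 34.1 CPM and at 56.1, 43.5 and 46.4 CPM. All Ksp-Cre mice were higher (0.61, standard error 0.16, edgeR adjusted p = 0.120), and DESeq2 called it (0.0461), as did edgeR without mouse 3 (0.0177). The protein C receptor gene Procr was low, at 1.82 to 3.24 CPM, and its log2 fold change was 0.45 (adjusted p = 0.492).

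Antithrombin (Serpinc1), the main inhibitor of thrombin and factor Xa, was at 1.89 and 1.44 CPM in the control mice and at 0.511, 0.591 and 0.600 CPM in the Ksp-Cre mice. With 9 to 28 reads per library the groups still did not overlap (log2 fold change -1.54, standard error 0.35, edgeR adjusted p = 0.0944, and 0.0227 without Ksp-Cre mouse 3). DESeq2 did not call Serpinc1 (adjusted p = 0.114). A2m, a broad protease inhibitor, was at 0.404 and 0.359 CPM and at 0.965, 1.12 and 0.733 CPM, or 5 to 19 reads (1.29, standard error 0.43, adjusted p = 0.193, and 0.0496 without mouse 3). Tfpi, which blocks tissue factor, was at 14.6 to 17.8 CPM (0.15, adjusted p = 0.647). Serpind1, heparin cofactor II, had 3 to 9 reads per library and was not tested.

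In fibrinolysis the receptor and the inhibitor of plasmin differed in opposite directions. Plaur, the urokinase receptor, was at 8.76 and 11.3 CPM in the control mice and at 24.5, 15.5 and 34.2 CPM in the Ksp-Cre mice. All Ksp-Cre mice were higher (log2 fold change 1.30, standard error 0.35, edgeR adjusted p = 0.131), and the gene was called by DESeq2 (0.0106) and without mouse 3 (1.01, adjusted p = 0.0206). Serpinf2, the α2-antiplasmin that inactivates plasmin, was at 163 and 143 CPM and at 71.6, 88.1 and 48.5 CPM. All Ksp-Cre mice were lower (-1.14, standard error 0.25, edgeR adjusted p = 0.0837), and DESeq2 (0.00133) and the fit without mouse 3 (-0.94, adjusted p = 0.00227) called it. Plau was at 362 and 447 CPM and at 776, 719 and 305 CPM, so that mouse 3 fell below both control mice while mice 1 and 2 lay above. The difference (0.57 on the log2 scale, standard error 0.40, adjusted p = 0.489) was 0.89 without mouse 3 (adjusted p = 0.00328). Plat, the tissue-type activator, was at 183 and 166 CPM and at 167, 199 and 155 CPM, with full overlap (-0.01, standard error 0.15, adjusted p = 0.985) and a sign that turned with the scaling. The substrate of both activators, Plg, had 3 to 11 reads per library and was not tested. Its levels were 0.270 and 0.215 CPM and 0.341, 0.473 and 0.733 CPM.

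Among the complement components, 10 of the 11 tested had a positive log2 fold change and 1 a negative one, with a median of 0.22. Of all 16394 genes tested, 8857 had a positive one, with a median of 0.04. Every Ksp-Cre mouse lay above both control mice for 3 of the 11 components, and for 20.3% of all genes. Cfb and Cfp, both near 0, changed sign in 2 alternatives each. C3 was at 1268 and 976 CPM in the control mice and at 1694, 2351 and 1605 CPM in the Ksp-Cre mice. Every Ksp-Cre mouse was higher (log2 fold change 0.75, standard error 0.24, edgeR adjusted p = 0.180), and DESeq2 (0.0326) and the fit without mouse 3 (0.85, adjusted p = 0.0172) called it. Masp1, a protease gene of the lectin pathway, was at 6.20 and 5.53 CPM and at 11.5, 12.2 and 12.9 CPM. The groups were tight and did not overlap (1.05, standard error 0.18, edgeR adjusted p = 0.0574, DESeq2 adjusted p = 7.8e-04). The partners of C3 in its own cleavage were nearer to level. Cfb was at 436 and 415 CPM and at 419, 544 and 406 CPM, with overlap (0.10, standard error 0.17, adjusted p = 0.786). C2 was at 95.4 to 135 CPM (0.24) and C4b at 36.4 to 63.2 CPM (-0.40, adjusted p = 0.298). C1ra (0.17), C1s1 (0.22), Cfi (0.19), Cfp (0.06) and C6 (0.58) overlapped as well, and C7 (0.40, adjusted p = 0.333) lay above both control mice in every Ksp-Cre mouse. Fcna, a ficolin, had 1 and 2 reads in the control mice and 0 in the Ksp-Cre mice, which is at the floor of 3 counts in both groups.

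The receptors of the anaphylatoxins C3a and C5a sit mainly on myeloid cells. C5ar1 was at 4.92 and 8.61 CPM in the control mice and at 13.1, 10.4 and 14.3 CPM in the Ksp-Cre mice, with all of these higher (log2 fold change 0.90, standard error 0.30, edgeR adjusted p = 0.189). C3ar1 was at 16.6 and 21.0 CPM and at 30.7, 29.8 and 15.7 CPM. In mice 1 and 2 it lay above the control mice and in mouse 3 below them (0.43, standard error 0.31, adjusted p = 0.498, and 0.69 with adjusted p = 0.0115 without mouse 3). The sum of 12 markers of macrophages and monocytes had the same order of mice as C3ar1, but not every marker did. That sum was 955 and 1339 CPM in the control mice and 1564, 1468 and 804 CPM in the Ksp-Cre mice. Its largest part was Lyz2, at 464 and 716 CPM and at 772, 699 and 229 CPM. Adgre1 was at 12.3 CPM in mouse 3 against 36.5 to 51.7 CPM in the other mice. Csf1r (103 CPM) and Cd68 (27.4 CPM) in mouse 3 lay between the control mice. Of the 12, 2 (Cd14 and Cd163) lay above both control mice in every Ksp-Cre mouse. Both were highest in mouse 3, at 176 and 3.2 CPM. Neutrophil markers summed to 17.1 to 32.8 CPM, with Mpo at 0 in all libraries. Their part in the receptor levels was not tested.

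Of the 5 complement inhibitors, 4 had a negative log2 fold change, as did 7537 of all 16394 genes tested. Cd55, decay-accelerating factor, was at 19.1 and 23.6 CPM in the control mice and at 8.06, 12.2 and 12.1 CPM in the Ksp-Cre mice. All Ksp-Cre mice were lower (-0.99, standard error 0.23, edgeR adjusted p = 0.103), and DESeq2 (0.0105) and the fit without mouse 3 (-1.07, adjusted p = 0.00928) called it. An antisense gene, Cd55os, covers 12.9% of the exon bases of Cd55, and whether counting used the strand is not stated. Cd46, a cofactor for the cleavage of C3b, was at 9.30 and 10.3 CPM and at 5.90, 6.62 and 11.5 CPM. Mouse 3 was the highest of all (-0.30, adjusted p = 0.662), and without it the log2 fold change was -0.65 (adjusted p = 0.0363). Cd59a, which blocks the membrane attack complex (-0.29), Cr1l, the rodent regulator Crry (-0.05), and Serping1, the C1 inhibitor (0.43), overlapped between the groups. The sign of Cr1l turned in 6 of 16 alternatives.

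Other genes of the same systems, 75 in a second list, were counted the same way. Of these, 52 were tested, 0 were called higher and 1 was called lower. That gene was F13b, the carrier subunit of factor XIII, which fell from 47.4 and 39.5 CPM to 13.3, 16.5 and 17.9 CPM (log2 fold change -1.45, standard error 0.17, edgeR adjusted p = 0.0412). The groups did not overlap, and the direction was opposite to that of F13a1. The call was lost without Ksp-Cre mouse 1 or 2, where edgeR called 0 of all genes. With any 1 mouse left out, the log2 fold change of F13b lay between -1.58 and -1.32. Of the 52 genes tested, 11 lay above both control mice in every Ksp-Cre mouse (20.3% of all genes did) and 20 below both (21.3% of all genes), whereas of the 39 members 16 lay above and 7 below. These counts are of CPM and depend on the scaling. In TPM the groups overlapped for several of the 20. Among them were Cpn1 (207 and 178 in the control mice, 202 and 203 in Ksp-Cre mice 1 and 2) and Vkorc1 (99.2 and 106, 104 in Ksp-Cre mouse 1). Others, such as F13b and C8a, stayed below in TPM. The difference between the lists was not tested.

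Markers of the nephron moved between the same groups. In CPM, all 9 proximal tubule markers lay below both control mice in every Ksp-Cre mouse, as 21.3% of all genes did. Their sums were 7448 and 7238 CPM against 2878, 3274 and 1687 CPM. The same held for 4 of 5 thick ascending limb markers and 3 of 4 of the distal convoluted tubule. It also held for 3 of 6 collecting duct markers and 3 of 5 podocyte markers. In TPM some of these overlapped, among them Umod (1785 and 2188 in the control mice, 2027 in Ksp-Cre mouse 1). Slc12a3 (638 and 361, 406 in Ksp-Cre mouse 1) and Cubn (40.9 and 46.8, 42.9 in Ksp-Cre mouse 2) overlapped too. Others, such as Slc34a1 and Slc12a1, stayed below in TPM. Injured tubule markers summed to 13521 and 14637 CPM against 29178, 30356 and 36014 CPM. Most of that sum was Spp1, at 12277 and 13442 CPM against 27016, 28061 and 33774 CPM, so its order of mice is that of Spp1. Endothelial markers, of which 1 of 8 lay above and 2 below, summed to 270 to 416 CPM, and platelet markers, 3 of 7 above, to 14.4 to 21.9 CPM. Fibroblast and pericyte markers, 4 of 8 above, summed to 381 and 588 CPM against 919, 880 and 624 CPM. All 5 erythroid markers lay above, with sums of 6.67 and 10.8 CPM against 151, 150 and 40.5 CPM, and lymphocyte markers, 1 of 7 below, summed to 21.6 to 43.1 CPM. The part of these shifts in the lower levels of Proc, Serpinf2 and F13b and in the higher levels of C3 and Thbd was not tested.

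**Figure D4:**
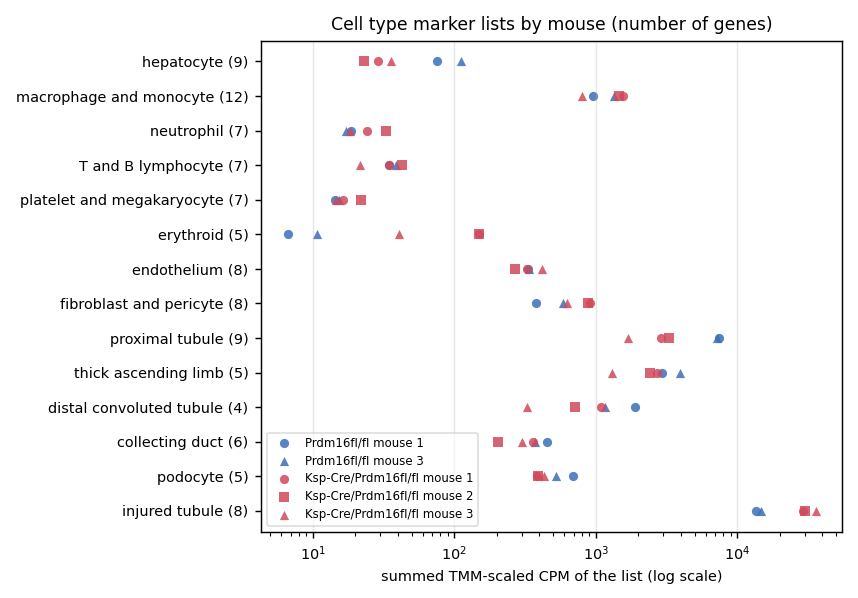
Summed TMM-scaled CPM of 14 lists of cell type markers in each mouse, on a log axis, with the number of genes of each list in parentheses. Proximal tubule and hepatocyte lists are lower and injured tubule and erythroid lists higher in all 3 Ksp-Cre mice, and the macrophage list is lowest in Ksp-Cre mouse 3. Most of the injured tubule sum is Spp1 and most of the hepatocyte sum is Ttr.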

How the data were processed

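Mouse kidney RNA-seq was analysed, with 1 library per mouse and groups taken from the sample labels. The authors removed adapter and low-quality reads, counted reads per gene, and deposited raw counts with TPM and FPKM made from them. The submitters' processing notes name CASAVA, featureCounts 2.0.1, DESeq2 1.16.1 and the build hg38, a human one. The mouse build, the aligner and the strand setting are not given in the sources used here, so genes with near copies (C1ra, C1s1, Cd59a, Cd55, C4b) and overlapping genes are uncertain. Of the 42 members, 8 share exon bases with another gene, and Fcna and Cd55 share more than 10%. The files' coordinates are not those of GRCm38.p6, and RefSeq promoters were matched by symbol for 29 members.

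Lines of 5 genes broken in the files were rejoined. Counts were filtered with filterByExpr of edgeR 4.0.16, scaled with TMM and tested with its quasi-likelihood test in R 4.3.3, with Benjamini-Hochberg adjustment over 16394 genes. The standard error is the log2 fold change divided by the square root of F. Counts of 3 or fewer were taken as the floor. No pair of libraries was a duplicate (chi-square per degree of freedom at least 9.89). Alternatives were DESeq2 1.42.0, other scalings and filters, limma 3.58.1 on log2(FPKM + 1) or log2(FPKM + 0.1), keeping genes that reach an FPKM of 1 in 2 libraries, removal of a gene length trend (loess, span 0.3), the mouse number as a block, and each mouse left out. On simulated counts edgeR called 73.91% of 92 genes that had been shifted by a log2 value of 1.5, 99.07% of 108 shifted by 3 and 0.14% of 15919 left as they were. Those counts were drawn gene by gene, with no library that stands apart as Ksp-Cre mouse 3 does. The shares therefore need not hold for these mice.

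The members and all lists were chosen with earlier results of these data known. Values in each mouse are given for members past the threshold, those whose groups do not overlap and differ by 0.5 or more on the log2 scale, the 5 with the highest TPM, and C3ar1, C5ar1, F3, Plat, Plg, Fga, Fgb, Fgg and Vwf. Of the other pathway genes, those past the threshold are named. Cd46, the remaining members and the marker genes named were added to place each member.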

Additional observations from a re-analysis of the deposited data

How the results depend on the processing

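Counts of called members depended on the fit. The 1 higher member became 7 with DESeq2 and 2 with no filter beyond 1 count in total. It became 0 with DESeq2's size factors in edgeR, library size or upper-quartile scaling, limma on either FPKM scale or without a filter, the length trend removed, the replicate block, and a required log2 fold change of 1. The 0 lower members became 3 with DESeq2, 2 with no filter and 1 with at least 10 counts in every library. Leaving out 1 Ksp-Cre mouse gave 0 to 14 higher and 0 to 6 lower members. Every call in those fits came from leaving out Ksp-Cre mouse 3. Of all genes, edgeR called 0 without Ksp-Cre mouse 1 or 2, against 1266 higher and 1787 lower without mouse 3. Limma without a filter called 0 of all genes too. Leaving out a control mouse left 1 mouse in that group, and calls are not given for it. The 1 called gene of the second list became 11 with DESeq2 and 5 with no filter. It became 0 with limma on log2(FPKM + 0.1), limma without a filter and the replicate block. With 1 Ksp-Cre mouse left out the count was 0 to 21. Members below both control mice were 3 instead of 7 with both filtered FPKM fits, which tested 13345 genes. F5, F8, F10 and Serpinc1 did not pass that filter, and on FPKM without it the count was 8. The members' median of 0.24 was 0.41 with limma on log2(FPKM + 0.1), 0.38 with limma on log2(FPKM + 1), 0.14 with the replicate block, 0.15 to 0.44 with 1 mouse left out, and 0.44 without control mouse 3. The cause of the shifts in the median was not tested.

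Library size scaling moved the median of all genes from 0.038 to 0.149, and all-gene calls from 17 higher and 143 lower to 14 and 37. The log2 fold changes that changed sign were near 0 throughout. Cfb was -0.04 with the replicate block and -0.04 to 0.18 with single mice left out. Vwf was -0.05 with the length trend removed, -0.04 with the block and -0.02 to 0.20 with single mice left out. Plat was 0.11 with library size scaling, 0.01 with upper quartile, 0.10 in the limma fits, 0.02 with the length trend removed and -0.12 to 0.07 with single mice left out. The mouse numbers do not pair the samples (r = 0.00102 for mouse 1 and -0.022 for mouse 3), and the block gave no count of separated members. Of all genes, 0 were called with the block by edgeR, with 2061 at an unadjusted p under 0.05. Members with few reads, such as F10, F13a1, Serpinc1 and A2m, rest on under 100 reads per library.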

Other observations

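Genes of the second list that missed the adjusted threshold in edgeR are given here as values, chosen after their values were seen. In the terminal complement pathway, C8a, a chain of the membrane attack complex, was at 11.3 and 19.4 CPM in the control mice and at 1.19, 2.30 and 0.200 CPM in the Ksp-Cre mice (log2 fold change -3.61, standard error 0.71, edgeR adjusted p = 0.0726, DESeq2 adjusted p = 1.8e-05). All Ksp-Cre mice lay below both control mice, and so they did for C8g, at 12.5 and 17.6 CPM and at 7.72, 9.10 and 6.4 CPM (-0.95, adjusted p = 0.117). The soluble inhibitor Clu lay above both control mice in every Ksp-Cre mouse, at 1737 and 1203 CPM and at 3380, 2735 and 2415 CPM (0.95, adjusted p = 0.122). The genes of C1q, C1qa (0.35), C1qb (0.24) and C1qc (0.27), overlapped between the groups.

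Of the kinin system, which shares its proteases with the contact phase of coagulation, Kng2, a kininogen, was at 365 and 351 CPM in the control mice and at 224, 164 and 147 CPM in the Ksp-Cre mice (-1.01, standard error 0.20, edgeR adjusted p = 0.0726, DESeq2 adjusted p = 6.0e-04). Klkb1, plasma prekallikrein, was at 8.63 and 6.46 CPM and at 3.46, 2.89 and 1.53 CPM (-1.51, adjusted p = 0.113). Both were lower in all Ksp-Cre mice. Serpine2, an inhibitor of thrombin and plasminogen activators, was higher in all of them, at 37.3 and 39.2 CPM and at 106, 86.6 and 64.9 CPM (1.17, standard error 0.22, edgeR adjusted p = 0.0659, DESeq2 adjusted p = 2.4e-04). Ksp-Cre mouse 1 was the highest and mouse 3 the lowest of the Ksp-Cre mice, the opposite of the order in Fga and Fgg.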
